A study of Glycine max with 9 samples.

Results

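The genes described here lie in the central region of the 20 soybean chromosomes, that is, with the midpoint of the transcribed span between 40% and 60% of the distance to the end of the last gene on the chromosome. Spans of at most 200 bp and spans given to more than 1 row of the table were left out. The rule found 1977 genes of the 33779 in the table, and these 1977 are called central genes below. They were compared with 21791 genes in the outer 20% at either end of the same chromosomes, called the ends, among 31715 chromosomal genes that passed the same filters. Before the filters 2091 genes had their midpoint in the central region, of which 105 shared a span and 9 were too short. Of the central genes 240 lay within 1% of the chromosome length inside a limit, and 252 genes lay as close outside one.

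Transcripts were sequenced from whole seeds at S6, a mid-maturation stage, of 9 soybean lines grown in growth chambers, with 1 library per line. As labeled, the lines were FAM94 (high stearic acid), Jack (oil like that of commodity beans), M23 (mid oleic acid), N0304-303-3 (low in palmitic and linolenic acid, mid oleic acid), R02-6268F, R05-4256, R05-591 and R08-1450 (all high oil) and R95-1705 (high protein). Under the growth conditions used, R95-1705 and N0304-303-3 were the lines named as low in oil content, and R05-591 and R05-4256 those named as high. Since no line was replicated, differences between lines carry no replicate error, and the units of the tests below are the 20 chromosomes of these same 9 libraries. The table gave a mean FPKM (fragments per kilobase of transcript, scaled to the mapped reads of a library) over the lines and a Z-score per line, and held no read counts, so that the depth behind each value is not known from it. In the study's list of abundant transcripts 10 genes encode storage proteins. Their mean over the lines ranged from 1288 to 33706 FPKM, and all ranked among the 56 most abundant genes of the table. Since that list was chosen by abundance in these libraries, the high ranks follow from the choice. They do not check the identity of any single library.

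The middle of a plant chromosome usually holds the centromere and the pericentromeric heterochromatin around it. This DNA is rich in transposable elements and other repeats, holds few genes and recombines rarely in meiosis, so that neighboring genes there tend to be inherited as one block within a breeding line. In soybean such regions take up a large part of every chromosome, while most genes lie toward the chromosome arms' ends.

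The central region was poor in expressed genes, with 10.7 ± 9.8 genes per Mb (mean ± SD over 20 chromosomes) against 57.8 ± 6.7 at the ends. The number of central genes per chromosome ranged from 39 on chromosome 5 to 430 on chromosome 13, with a median of 74.5. Chromosome 5 had 7.04% of the density of its ends. Chromosome 13 went against the description as gene-poor: its central region held 48.5 genes per Mb, 83.5% of the density of its ends. Chromosomes 11 and 8 followed with 30.7% and 29.3%, and the other 17 had less. Chromosome 13 thus supplied 430 of the 1977 central genes, so the tests below weighted the chromosomes equally. Medians, shares and mean r given over all central genes or pairs are pooled, and chromosome 13 weighs most in them.

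**Figure D1:**
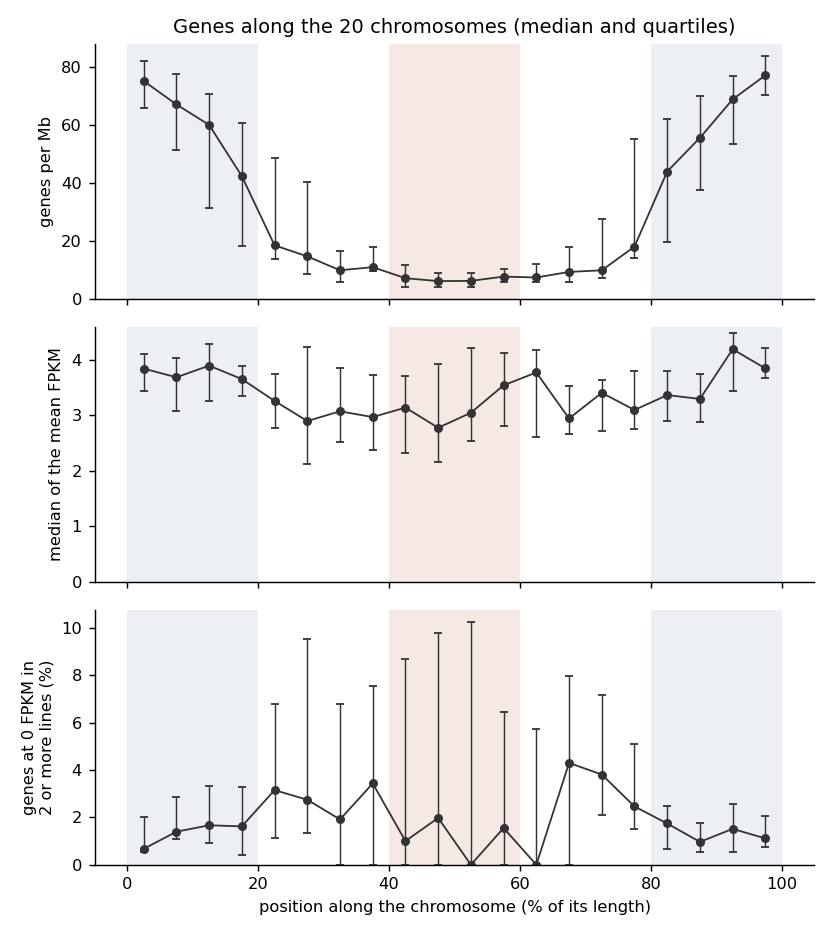
Genes along the 20 chromosomes in bins of 5% of the length, from one end (0%) to the other (100%). Points are medians over chromosomes and bars reach to the quartiles, the red band is the central region, the blue bands are the ends, and bins with fewer than 5 genes on a chromosome were left out of the 2 lower panels. The median density stood at 75.2 and 77.2 genes per Mb in the outermost bins and at 6.16 to 7.71 in the 4 central bins.

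Transcript accumulation of the central genes was moderately lower than at the ends. The median of the mean FPKM was 3.29 over all central genes (quartiles 1.30 and 7.57) and 3.75 over the ends (1.42 and 9.01). Within chromosomes the median of the central genes was lower on 17 of 20, and the median log2 ratio, center over ends, was -0.27 (mean -0.26 ± 0.27 SD over chromosomes; exact two-sided Wilcoxon signed-rank test over 20 chromosomes, adjusted p = 0.00145 over the 6 contrasts of this kind). Chromosome 7 had the lowest central median, with 2.2 against 3.88 FPKM at its ends. The 3 chromosomes with a higher central median were 2 (4.03 against 3.5 FPKM), 11 (3.97 against 3.70 FPKM) and 13 (3.82 against 3.72 FPKM). With the arithmetic mean in place of the median, the log2 ratio was -1.33. Genes between center and ends had a pooled median of 3.37 FPKM, so the lower level was not limited to the central region.

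**Figure D2:**
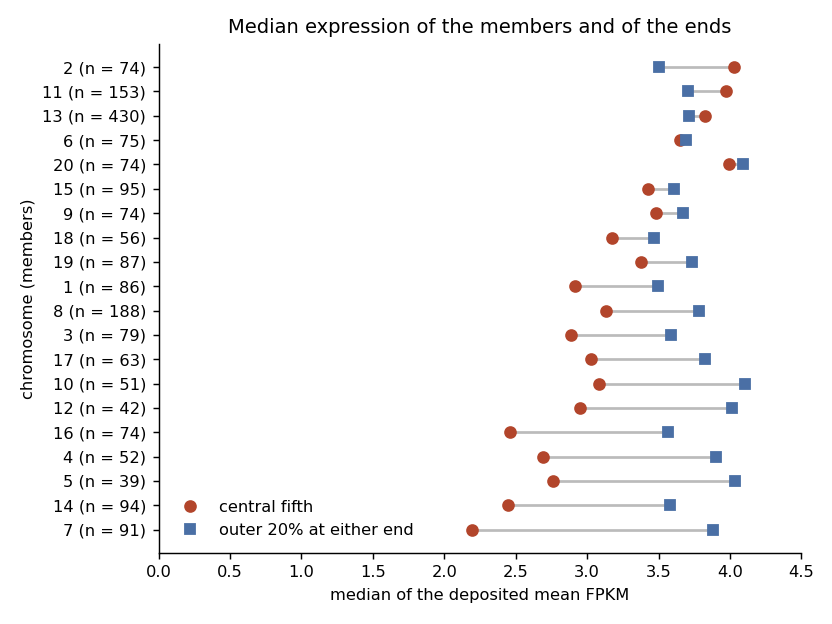
Median of the mean FPKM (x axis, linear) of the central genes (circles) and of the ends (squares) for each chromosome, ordered by their log2 ratio, with the number of central genes in parentheses. The circle lies left of the square on 17 of 20 chromosomes, and the ends vary less (3.47 to 4.11 FPKM) than the central regions (2.2 to 4.03 FPKM).

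Central genes made up 6.23% of the filtered genes and 4.91% of their summed FPKM, or 3.19% without the most abundant one. Only 24 central genes had a mean from 100 to 1000 FPKM, and 2 exceeded 1000 FPKM. Of the central genes 1237 (62.6%) had a mean from 1 to 10 FPKM, against 58.9% at the ends, and 338 (17.1%) had 10 to 100 FPKM, against 20.8%. Their spans were slightly longer, with a median of 4236 bp against 3972 bp, and the median log2 ratio within chromosomes was 0.15 (longer on 15 of 20, adjusted p = 0.0128 by the same exact test). An exact sign test gave an adjusted p of 0.0828 for the span length.

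The 10 most abundant central genes stood from 231 to 11787 FPKM, and none of them passed the cutoff of 2 in any line. The first was Gy5 (Glyma13g18450, chromosome 13, 22109246 to 22113254), which encodes a subunit of glycinin, the 11S globulin that stores protein in the bean. Its mean was 11787 FPKM, and its Z-score was lowest in R08-1450 at -1.93 and highest in M23 at 1.73, with a median of 0.16. Positions are those of the Williams 82 genome with the annotation Gmax_189.

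The second, Glyma17g23900 (chromosome 17, 24100696 to 24103526), encodes elongation factor 1-alpha, which brings aminoacyl tRNAs to the ribosome. It averaged 2261 FPKM, again with its lowest Z-score in R08-1450 (-1.85) and its highest in M23 (1.18). Glyma02g26860 (chromosome 2, 27966405 to 27968883), annotated as an adenine nucleotide alpha hydrolase-like protein, followed with 646 FPKM and Z-scores from -1.65 in R05-591 to 1.33 in Jack. The other 7 had means from 231 to 485 FPKM, and 6 of them are known here by position only. R05-591 held the lowest Z-score in 4 of these 7, on chromosomes 13, 15 and 16, with values from -1.29 to -1.54. In the remaining 3, 1 on chromosome 11 and 2 on chromosome 8, Jack was highest, with 1.14 to 1.89.

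A Z-score here is the distance of a line's log2 FPKM from the mean of the 9 lines in SD of that gene, so that it cannot exceed 2.67 and says nothing of the size of a change in FPKM. A gene was counted as called where any line was at 2 or above (raised) or at -2 or below (reduced). Calls among central genes were about as frequent as at the ends. Of the 1977 central genes 485 were called (24.5%, 95% Wilson interval 22.7 to 26.5), against 24 percent of all filtered genes and 24.3% at the ends. The interval covers counting of genes only. The difference over chromosomes was 0.079 ± 4.65 percentage points (exact two-sided Wilcoxon signed-rank test, adjusted p = 0.956). The share of called central genes ranged from 17.9% on chromosome 5 (7 of 39) to 33.8% on chromosome 20 (25 of 74), a spread wider than that of the ends (22.0% to 27.9%), which hold far more genes per chromosome.

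Raised calls were made in 271 central genes (13.7%) against a background of 13.1% over all filtered genes, and reduced calls in 214 (10.8%) against a background of 10.9%. Raised genes were 55.9% of the called central genes (Wilson interval 51.4 to 60.2), and 53.9% at the ends.

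By line, calls in the central region were most frequent in R08-1450, as they were over all genes. R08-1450 was raised in 122 central genes (6.17%), where 5.39% of all filtered genes were raised, and reduced in 75 (3.79%), where the background was 4.69%. The reduced share lay 1.44 ± 1.68 points below that of the ends (4.98%) and was lower on 16 of 20 chromosomes (exact two-sided Wilcoxon signed-rank test, adjusted p = 0.0258 over 18 line and direction contrasts). The raised share lay 0.901 ± 3.96 points above the ends (exact test, adjusted p = 0.48). With Z-scores recomputed without any 1 of the other 8 lines, the reduced difference ranged from -0.493 to -1.19 points (exact test, adjusted p from 0.0966 to 0.637). The cutoff stayed at 2 there, though fewer lines lower the largest possible Z-score. These settings therefore cannot tell a dependence on single lines from a stricter cutoff.

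Jack came second, with 36 central genes raised (1.82%, background 2.08%) and 50 reduced (2.53%, background 2.36%). R95-1705 was raised in 17 (0.860%, background 0.763%) and reduced in 33 (1.67%, background 1.17%). Its reduced share was 0.906 ± 2.13 points above the ends, which did not pass the exact test (adjusted p = 0.48).

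FAM94 was raised in 22 central genes (1.11%, background 1.12%) and reduced in 4 (0.202%, background 0.243%). R05-591 was raised in 18 (0.910%, background 1.2%) and reduced in 20 (1.01%, background 0.776%). N0304-303-3 was raised in 17 (0.860%, background 0.974%) and reduced in 6 (0.303%, background 0.634%). The reduced share of R05-591 lay above the background but did not pass the exact test against the ends (adjusted p = 0.819). The other shares lay near or below the background. The reduced share of N0304-303-3 was the only other contrast past the threshold, 0.450 ± 0.575 points below the ends on average (lower on 17 of 20 chromosomes, exact test, adjusted p = 0.0380). Since 16 chromosomes held no central gene reduced in N0304-303-3, the signed ranks there mostly compare 0 with a small share at the ends. Without any 1 of the other lines its adjusted p by the exact test ranged from 0.193 to 0.576, with the same limit of an unchanged cutoff.

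M23 was raised in 9 central genes (0.455%, background 0.612%) and reduced in 7 (0.354%, background 0.318%). R05-4256 was raised in 13 (0.658%, background 0.479%) and reduced in 10 (0.506%, background 0.391%). R02-6268F was raised in 17 (0.860%, background 0.501%) and reduced in 9 (0.455%, background 0.296%). For R02-6268F the pooled reduced share exceeded that of the ends (0.248%) although 14 of 20 chromosomes were lower, since 14 chromosomes held no such gene and 1 run on chromosome 3, described below, held 4 of the 9. None of these 6 contrasts passed the test.

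**Figure D3:**
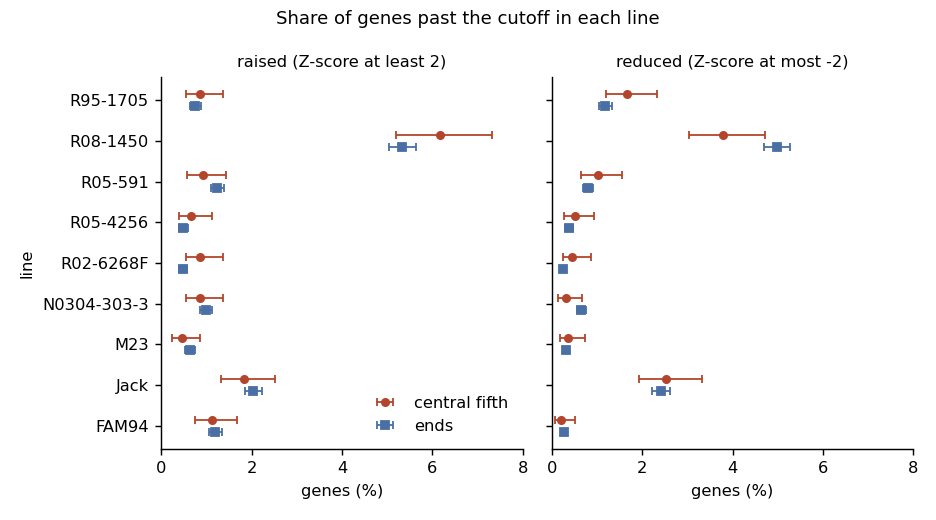
Percent of genes raised (left) and reduced (right) in each line, for the central region (circles) and the ends (squares), pooled over chromosomes with 95% Wilson intervals. R08-1450 stands at 6.17% raised and 3.79% reduced among central genes, and the intervals of the 2 regions overlap in most lines.

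The whole distribution of Z-scores was then compared through the median per chromosome, a comparison added after the shares had been seen. R08-1450 was shifted upward in the central region relative to the ends, but the shift was not limited to that region. In bins of 5% of the length, the mean over chromosomes of its median Z-score was 0.05 to 0.28 in the 4 central bins. In the bins between center and ends it was 0.01 to 0.35. The median Z-score of R08-1450 over all central genes was 0.20, against -0.04 at the ends, and 53.9% of central genes lay above 0, against 49.2%. Its central median was above 0 on 17 of 20 chromosomes, from -0.26 to 0.55, and exceeded that of the ends on 16 of 20, by 0.28 ± 0.25 on average (exact two-sided Wilcoxon signed-rank test, adjusted p = 0.00235 over 9 lines). R95-1705 had a smaller shift of the same sign (0.15 ± 0.21, higher on 13 of 20, exact test, adjusted p = 0.0245).

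R05-591 was shifted downward by 0.16 ± 0.22 (lower on 16 of 20, exact test, adjusted p = 0.0187). M23 fell by 0.10 ± 0.15 and R02-6268F by 0.08 ± 0.12, each lower on 15 of 20 chromosomes (exact test, adjusted p = 0.0187 for both). FAM94, Jack, N0304-303-3 and R05-4256 had differences from -0.03 to 0.01 and adjusted p from 0.766 to 0.927. The 9 Z-scores of a gene sum to 0, so that a shift in 1 line lowers the others, and the 9 tests are not independent. Without R08-1450 the tests of R02-6268F, R05-591 and R95-1705 still passed, while M23 had an adjusted p of 0.165. Without N0304-303-3, R95-1705 had an adjusted p of 0.0640. With the central 45% to 55% alone, and likewise with an exact sign test, 0 of 9 lines passed. For R08-1450 the exact tests of these settings gave a difference of 0.18 (adjusted p = 0.18) and an adjusted p of 0.0532.

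The shift of R08-1450 was present in each class of mean FPKM up to 1000. Its median Z-score among central genes and ends was -0.36 and -0.51 under 0.5 FPKM, -0.33 and -0.57 from 0.5 to 1 FPKM, and 0.42 and 0.14 from 1 to 10 FPKM. It was 0.31 and 0.06 from 10 to 100 FPKM and -0.08 and -0.41 from 100 to 1000 FPKM, the last with 24 central genes. The 2 central genes above 1000 FPKM, Gy5 and elongation factor 1-alpha, went the other way, with a median of -1.89 against -0.70 at the ends. The table gives neither library depth nor RNA quality. The study states read numbers per library, which were not used here, and the part of depth and RNA quality in the shift was not tested.

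**Figure D4:**
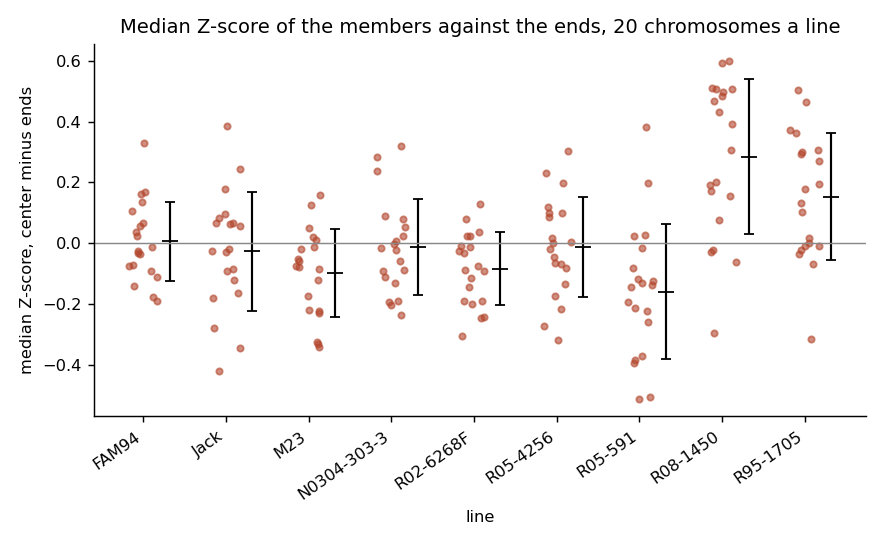
Difference in median Z-score, central genes minus ends, for each of the 20 chromosomes (points, spread sideways for legibility) in each line, with the mean and SD over chromosomes (bars). In R08-1450 16 of 20 points lie above 0, and in R05-591 16 of 20 lie below.

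Central medians also varied more from chromosome to chromosome than those of the ends. Over the 180 combinations of line and chromosome they ranged from -0.58 (R05-591, chromosome 20) to 0.55 (R08-1450, chromosome 20), with an SD of 0.21, against -0.26 to 0.16 with an SD of 0.07 at the ends. Smaller numbers of genes per chromosome alone widen such medians. R05-591 held 5 of the 6 lowest values, on chromosomes 20, 2, 17, 6 and 10, and R08-1450 held the 5 highest, on chromosomes 20, 9, 5, 7 and 16.

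Genes without detected transcripts in some lines were more frequent in the central region than at the ends. All lines with no FPKM for a gene have an equal, lowest Z-score there, which marks genes at 0 in 2 or more lines. Of the central genes 81 (4.10%, Wilson interval 3.31 to 5.06) were at 0 in 2 or more lines, against 333 (1.53%, 1.37 to 1.70) at the ends. Some were adjacent spans with the same lines at 0, as on chromosome 14 from 29595989 to 29604184, expressed in R02-6268F alone. The intervals count such spans as separate genes, which was not tested. Genes between center and ends stood closer to the center, with 262 of 7947 (3.30%). The share was higher in the center than at the ends on 18 of 20 chromosomes, by 3.38 ± 3.68 points (exact two-sided Wilcoxon signed-rank test, adjusted p = 0.000629). It ranged from 0 of 74 genes on chromosome 16, which allows a share of up to 4.05%, to 9 of 63 on chromosome 17 (14.3%).

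These 81 genes were short and weakly expressed, with a median span of 897 bp against 4370.5 bp for the other central genes and a median of 0.922 FPKM against 3.5. With genes under 1 FPKM left out the difference was 1.96 points (exact test, adjusted p = 0.0146). Reweighting the ends to the span classes of the central genes left it at 3.34 points. The lowest of these classes reached to 2 kb, so span length among the shortest genes was not matched. In the class from 0.5 to 1 FPKM 44 of 251 central genes (17.5%) were at 0 in 2 or more lines, against 8.54% at the ends. Below 0.5 FPKM the count was 0, since the table kept such genes only where every line expressed them. Of the 81, 30 were at 0 in 2 lines, 12 in 3, 9 in 4, 15 in 5, 7 in 6, 6 in 7 and 2 in 8. Jack had the most of them at 0 (42) and R02-6268F the fewest (25), with 30 to 39 in the other 7 lines. R08-1450, at 0 in 53.8% of the 333 such genes of the ends, was at 0 in 37.0% of the 81. This difference was not tested.

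For these genes FPKM per line could be solved from the Z-scores and the mean. The most abundant (chromosome 17, 22636151 to 22636385, mean 14.0 FPKM) was at 0 in R05-4256 and R05-591. The other lines had 7.23 (R02-6268F), 13.1 (M23), 13.8 (N0304-303-3), 18.5 (FAM94), 22.8 (Jack), 24.8 (R95-1705) and 26.2 FPKM (R08-1450). Among the 5 most abundant of the 81 it was the only one with 7 lines above 5 FPKM.

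The second (chromosome 8, 22580142 to 22580682) was at 75.9 FPKM in R05-591, 3.66 in FAM94 and 0 in the other 7 lines. The third, on the same chromosome (21083438 to 21085421), had 49.2 FPKM in R08-1450 and 16.0 in R95-1705, and at most 1.81 in the other 7 lines, with 0 in Jack and R05-591. The fourth (chromosome 13, 23473363 to 23473922) had 5.14 to 13 FPKM in 5 lines and 0 in FAM94, N0304-303-3, R08-1450 and R95-1705. The fifth (chromosome 19, 30303387 to 30308257) had 14.2 FPKM in R08-1450 and 15.7 in R95-1705, and at most 0.313 in the others. In the third and the fifth the same pair of lines stood apart. No gene model could be given for these 5.

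Adjacent central genes varied little more together than adjacent genes at the ends. For each of 1956 pairs of consecutive central genes Pearson's r was taken over the 9 lines, and no single r was tested. The mean r was 0.050 ± 0.062 over chromosomes, against 0.039 ± 0.016 at the ends, a difference of 0.011 ± 0.054 (exact two-sided Wilcoxon signed-rank test, adjusted p = 0.396). Pairs on different chromosomes, which show what the lines share in general, had a mean r of 0.0059 in the center and 0.0020 at the ends. Chromosomes 20, 6 and 16 had the highest central mean (0.153, 0.144 and 0.137) and chromosomes 1, 2 and 3 the lowest (-0.034, -0.025 and -0.025). The median gap between central neighbors was 24.0 kb, against 5.98 kb at the ends. With the ends reweighted to the gaps of the central pairs the difference was 0.021 ± 0.076 (exact test, adjusted p = 0.346).

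Pairs less than 5 kb apart differed from this. The 456 central pairs of this class had a mean r of 0.118, against 0.047 for 9756 pairs at the ends, and 16.7% of them had an r of at least 0.7, against 7.50%. Averaged over chromosomes the difference was 0.139 ± 0.170, higher in the center on 15 of 20 (exact two-sided Wilcoxon signed-rank test, adjusted p = 0.0108 over the 4 gap classes). This class was singled out after the gap classes had been seen. The pairs are unevenly spread, with 186 on chromosome 13, 4 on chromosome 10 and under 10 on 9 chromosomes. With the central 45% to 55% alone the difference was 0.068 (exact test, p = 0.293), and from each gene to the second neighbor it was 0.208 (p = 0.123). From 5 to 20 kb the mean r was 0.050 and 0.031, from 20 to 100 kb -0.013 and 0.029, and over 100 kb 0.031 and 0.024, with adjusted p of 0.392, 0.0655 and 0.701.

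Within the class under 5 kb the mean r was higher for pairs with a short span or a short gap. The pairs with an r of at least 0.7 were not limited to these. Of 76 such central pairs 20 had a gap under 500 bp, and 56 a wider one (14.7% of that class, against 7.15% at the ends). Among central pairs with both spans of at least 2 kb, 26 had such an r (9.39%, against 6.52% at the ends). The 75 central pairs with a gap under 500 bp had a mean r of 0.292, against 0.084 at the ends. For the 381 central pairs from 500 bp to 5 kb it was 0.083, against 0.043. Whether spans that lie so close are separate genes was not tested. Central pairs whose shorter span was under 2 kb (179 pairs) had a mean r of 0.287, against 0.074 at the ends. The 277 central pairs with both spans of at least 2 kb had a mean r of 0.0084, against 0.035. The 43 central pairs that included a gene at 0 FPKM in 2 or more lines had a mean r of 0.418, and the other 413 had 0.087, against 0.166 and 0.044 at the ends. These splits were made after seeing the data and were not tested.

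**Figure D5:**
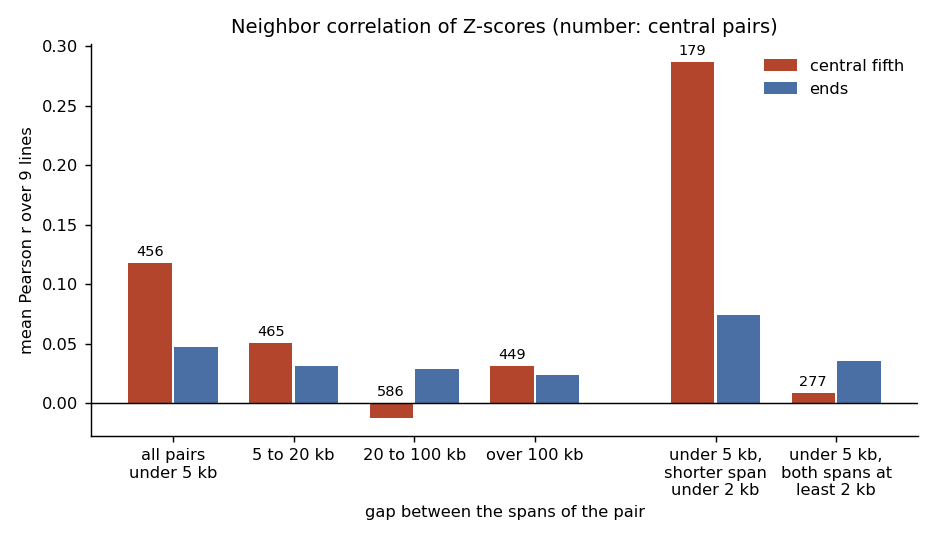
Mean Pearson r over the 9 lines between the Z-scores of adjacent genes, by the gap between their spans, for central genes and ends, with the number of central pairs above each bar. The 2 groups of bars at the right split the class under 5 kb, where central pairs with a shorter span under 2 kb reach 0.287 and those with both spans of at least 2 kb 0.0084.

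Over all pairs of central genes on a chromosome, adjacent or not, the mean r was 0.151 where the midpoints were under 10 kb apart (488 pairs) and 0.023 from 10 to 30 kb. It lay between 0.0013 and 0.0049 from 300 kb to 10 Mb. At the ends it was 0.049 under 10 kb and 0.015 from 10 to 30 kb.

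Most called genes of the central region stood alone, and no count of runs is given for the ends to set beside this. The 485 called genes fell into 421 single genes, 26 pairs of consecutive genes called in the same line and direction, and 3 longer runs. The first run lay on chromosome 3 (28100312 to 28179027), where 4 consecutive genes were reduced in R02-6268F. Glyma03g22120 and Glyma03g22151, both annotated as disease resistance proteins of the TIR-NBS-LRR class, receptors that detect pathogen effectors inside the cell, had Z-scores of -2.37 and -2.58. Their means were 0.85 and 2.0 FPKM. Next came a span without a gene model at -2.53 and a span holding Glyma03g22180 and Glyma03g22190, annotated as a protein kinase and a ribosomal protein S12/S23, at -2.59. In the other 8 lines these 4 genes lay between -0.21 and 1.16. This run is part of the set of 5 consecutive central genes with the highest mean pairwise r, 0.77, where the median over 1893 such sets was -0.0042.

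The second run was the longest, with 5 genes on chromosome 20 (23675017 to 23841233) raised in R08-1450 at Z-scores from 2.09 to 2.36 and means from 0.545 to 9.64 FPKM. It was also the set with the second highest mean r (0.75). The third run held 3 genes on chromosome 13 (21761788 to 21779206) reduced in R08-1450, with a mean Z-score of -2.29. The third most coherent set (mean r 0.70) lay on chromosome 13 (20451890 to 20481441) and had its highest mean Z-scores in R08-1450 (1.79) and R95-1705 (1.12), with R05-591 lowest at -0.93. It included Glyma13g16510, annotated as heat shock transcription factor A2, a regulator of heat-induced chaperone genes, with a mean of 23.7 FPKM and a Z-score of 1.75 in R08-1450. These sets were chosen by their values and are descriptions only.

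Some abundant called genes carried an annotation. Glyma13g21291 (chromosome 13, 24765298 to 24767750), annotated as embryonic cell protein 63, a name given to late embryogenesis abundant proteins, had a mean of 230 FPKM and was reduced in R05-591 (-2.03). Glyma03g21710 (chromosome 3, 27538260 to 27540987), a ribosomal protein S8e, had 143 FPKM and was raised in Jack (2.24). Glyma02g25290 (chromosome 2, 26033128 to 26037895), a glucose 6-phosphate/phosphate translocator, which brings hexose phosphate into plastids, had 39.99 FPKM and was reduced in R95-1705 (-2.23). Glyma20g19630 (chromosome 20, 27706476 to 27706935), with no function given, had 216 FPKM and was reduced in R08-1450 (-2.21). Each was the most abundant central gene called in that line and direction.

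For the remaining lines, Glyma02g25260 (chromosome 2, 25984542 to 25988884), an ankyrin repeat protein with 5.88 FPKM, was reduced in FAM94 (-2.14). Glyma03g18770 (chromosome 3, 23955955 to 23959757), with a domain of unknown function, had 6.75 FPKM and was reduced in N0304-303-3 (-2.23). The other 12 genes picked in this way had no gene model here, with means from 7.62 to 118 FPKM. Of these 12, 5 lay on chromosome 13, raised in FAM94, M23, N0304-303-3 and R08-1450 and reduced in R05-4256.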

How the data were processed

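Whole-seed libraries of 9 lines, 1 each, were sequenced by the authors on a HiSeq instrument from a TruSeq kit for which no strand is stated. Per the labels and the study's methods, the authors ran Bowtie 0.12.8 and TopHat 1.4.0 against the Williams 82 genome, allowing 2 mismatches and keeping only reads that had a single location. FPKM came from Cufflinks, Cuffmerge and Cuffdiff 2.1.1 (annotation Gmax_189). Dropping reads of many locations lowers genes that share sequence with repeats or copies, and its part in these results was not tested. A gene entered the authors' table if it averaged 0.5 FPKM or more, or if all 9 lines expressed it.

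The deposited table gives the authors' mean FPKM per gene and, per line, a Z-score computed by the authors from log2 FPKM. All columns of lines were used (0 unused). The score behaved as taken from log2(FPKM + 1): with the lowest and highest FPKM of the study's list of abundant genes, the deposited mean was recovered within 0.01% for 99 of 99 genes. With log2 FPKM and no added constant it was recovered for 53 of the 99. All of these genes were abundant, so the recovery was not checked at low FPKM. On that scale FPKM per line was solved for genes at 0 FPKM in 2 or more lines (lowest Z-scores equal within 1e-06). No read counts were used, so no counting error of an FPKM is given.

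Chromosome length was taken as the end of the last gene. Central region and ends were compared per chromosome with exact two-sided Wilcoxon signed-rank tests (zero differences dropped), adjusted by Benjamini-Hochberg over 6 single contrasts, 18 line and direction contrasts, 9 line medians or 4 gap classes, and these tests do not speak to other lines. Named genes were the 10 most abundant, the most abundant called gene per line and direction, runs of 3 or more, the 3 most coherent sets of 5 genes, and the 5 most abundant genes at 0 FPKM in 2 or more lines. The central genes, lists and tests were chosen with earlier results of these data known. Gene models came from the study's gene lists for 93 central genes, 79 by span and 14 by chromosome and mean FPKM. One list was used only in part, so annotations were counted and not tested. A RefSeq gene table of another assembly was not used, and no sequence is given. Python 3.11.15 with NumPy 2.4.6, pandas 2.3.3, SciPy 1.17.1 and Matplotlib 3.10.9 was used, and the tests were tested on simulated data. The alternatives tried were other limits of center and ends, all other genes as the comparison, filters on span and FPKM, the sparse chromosomes alone, a sign test, each line left out, other summaries and cutoffs, other correlations and pairs, and, chosen after seeing the data, ends weighted to classes of FPKM (limits 1, 3 and 10) or span (limits 2, 4 and 8 kb).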

Additional observations from a re-analysis of the deposited data

Results flagged for a closer look

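Values over the 9 lines were screened for a line whose gap to the nearest other exceeded Dixon's 95% critical share of the range, and 3 of 22 measures had one. Chance gives about 1 in 20 groups, which can be read against the first of the 3 alone. R08-1450 stood apart in the percent of central genes raised (6.17%). This was not particular to the central region, since R08-1450 was also highest over all filtered genes (5.39% raised, with Jack next at 2.08%). R05-591 stood apart in the FPKM of the gene on chromosome 8 at 22580142 (75.9 FPKM), and R08-1450 in that of the gene on chromosome 8 at 21083438 (49.2 FPKM). Both genes were chosen among those at 0 FPKM in 2 or more lines by their mean, which 1 high line can supply, so that a line standing apart there follows from the choice and is no result.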

How the results depend on the processing

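The lower expression of central genes kept its direction and its call under all 13 alternatives (log2 ratio -1.33 to -0.20), and the higher share of genes at 0 FPKM under all 12 (1.96 to 4.13 points) and with each line left out (2.94 to 3.33). The longer spans kept their call under 10 of 11 alternatives, with 0.15 and an adjusted p of 0.0828 by the sign test. The share of called genes changed sign with the center at 35% to 65% (-0.493 points), with ends weighted to span classes (-0.0542), and without N0304-303-3 or R95-1705 (range over lines left out -0.0190 to 1.35). The neighbor correlation changed sign at 45% to 55% (-0.0027) and for the second neighbor (-0.0054, and -0.0014 at matched distance). None of these passed the test in any setting. For pairs under 5 kb apart the call was lost at 45% to 55% (0.068) and for the second neighbor (0.208).

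The number of line and direction contrasts past the threshold, 2 of 18, was 1 at 45% to 55%, with no minimum span, with shared spans kept and by the sign test. It was 0 with the outer 10% as ends and at cutoffs of 2.2 and 1.5, and 3 with genes under 0.5 FPKM left out. With each line left out it was from 0 to 0, at an unchanged cutoff of 2, though fewer lines lower the largest possible Z-score. The number of line medians past it, 5 of 9, was 0 at 45% to 55% and by the sign test, 3 at 35% to 65%, 2 with ends weighted to span classes, and 3 to 5 with each line left out. The chromosomes with under 50% of the ends' density were the 19 other than chromosome 13. Center and ends were paired by chromosome, while no paired comparison between lines was possible because each line has 1 library. Depth per value is not given in the table, few central genes per chromosome limit the rare calls, and 1 library per line leaves line and library not told apart.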

Other observations

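Chromosome 20 stood at the upper end in several measures of its 74 central genes. Its share of called genes was 33.8%, against 22.0% at its ends, its mean neighbor r was 0.153, against 0.067, and it held both the lowest and the highest central median of any line and chromosome. These measures are not separate. Of its central genes 13.5% were raised in R08-1450, against 5.06% at its ends, and the run of 5 genes described above enters each measure. Chromosome 17 had the most genes at 0 FPKM in 2 or more lines for its size, 9 of 63, against 0.766% at its ends.

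The annotated central genes came from lists chosen largely by their calls, so that 84 of the 93 were called and their counts describe the lists. Of 10 annotated as transcription factors, zinc finger, homeobox or MYB proteins, 4 were raised and 5 reduced in some line. Of 6 kinases, 1 was raised and 5 were reduced, and of 3 ribosomal proteins 2 were raised and 1 was reduced. Both disease resistance proteins were reduced. Of 3 genes with heat shock or chaperone in the annotation, heat shock transcription factor A2 among them, 2 were raised. Of 2 late embryogenesis abundant proteins 1 was reduced. The 1 desaturase, lipid or acyl gene was reduced, the 1 ubiquitin or F-box gene was raised, and the 1 seed storage gene, Gy5, was not called. Oil body, histone, pentatricopeptide and transposon genes numbered 0 in the lists.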
